A study of Homo sapiens with 66 samples.

Results

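The 9 heat shock and chaperone genes described here are HSPA8, HSPA4, HSPA4L, HSPH1, DNAJB1, HSP90AA1, HSP90AB1, HSPD1 and HSPE1. They were the rows of the count table whose Ensembl identifiers map to these symbols in GENCODE release 29, 9 of 13331 genes, and all 9 passed the filter on low counts. RNA came from KBM7, a human chronic myeloid leukaemia line, in 66 libraries, with 3 libraries (replicates A, B and C) in each of 22 groups. In 9 lines 1 protein carried a dTAG: CDK9, or the Mediator subunit MED31, MED28, MED26, MED14, MED12, MED10, MED6 or MED1. Each tagged line was given DMSO alone or 500 nM of dTAG7, a compound that brings the tagged protein to an E3 ubiquitin ligase. Wild-type KBM7 had these same 2 groups and 2 more, treated with dBET6 (100 nM), a degrader of BET bromodomain proteins, or with THAL-SNS-032 (250 nM), a degrader of CDK9. All treatments lasted 6 h. Whether a tagged line was 1 clone is not given in the sources used here. The replicates were separate wells of 1 line, so p-values measure only the spread between these wells, which may be technical.

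Chaperones bind proteins that are not yet folded or have lost their fold. HSP70 proteins such as HSPA8 work in a cycle of ATP hydrolysis: J-domain proteins such as DNAJB1 start the hydrolysis, and nucleotide exchange factors of the HSP110 kind (HSPA4, HSPA4L and HSPH1) release ADP and reset the cycle. Many clients then pass to the HSP90 proteins HSP90AA1 and HSP90AB1, while HSPD1 and its lid HSPE1 fold proteins in the mitochondrial matrix. Heat shock factor 1 (HSF1) drives these genes under stress through heat shock elements, inverted repeats of a short GAA unit, and release of paused RNA polymerase II by P-TEFb (CDK9 with a cyclin) is a classic step of their induction. Mediator links transcription factors to RNA polymerase II.

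Promoters are shown for HSPA8 and DNAJB1, which fell beyond the bulk of transcripts in the CDK9 line and with both degraders in wild-type cells, and for HSP90AA1, HSP90AB1 and HSPD1, which lost less than the bulk there. Each line holds the 250 bases before a RefSeq start on GRCh38.p14, read 5′ to 3′ on the gene's strand, and capitals mark GAANNTTC or TTCNNGAA, a pair of inverted GAA units. The windows are chr11:123062137-123062386 (HSPA8, minus strand), chr19:14518398-14518647 (DNAJB1, minus), chr14:102087045-102087294 (HSP90AA1, minus), chr6:44247693-44247942 (HSP90AB1, plus) and chr2:197499841-197500090 (HSPD1, minus).
HSPA8: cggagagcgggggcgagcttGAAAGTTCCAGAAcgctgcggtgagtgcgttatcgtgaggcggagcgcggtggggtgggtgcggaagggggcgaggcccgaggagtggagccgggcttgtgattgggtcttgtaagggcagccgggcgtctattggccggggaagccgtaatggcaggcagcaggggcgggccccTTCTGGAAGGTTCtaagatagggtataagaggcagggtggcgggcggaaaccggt
DNAJB1: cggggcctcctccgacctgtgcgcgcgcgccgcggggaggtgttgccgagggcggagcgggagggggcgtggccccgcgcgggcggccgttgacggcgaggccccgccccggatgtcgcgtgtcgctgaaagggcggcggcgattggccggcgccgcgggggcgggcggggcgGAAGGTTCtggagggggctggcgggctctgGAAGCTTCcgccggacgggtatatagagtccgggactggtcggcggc
HSP90AA1: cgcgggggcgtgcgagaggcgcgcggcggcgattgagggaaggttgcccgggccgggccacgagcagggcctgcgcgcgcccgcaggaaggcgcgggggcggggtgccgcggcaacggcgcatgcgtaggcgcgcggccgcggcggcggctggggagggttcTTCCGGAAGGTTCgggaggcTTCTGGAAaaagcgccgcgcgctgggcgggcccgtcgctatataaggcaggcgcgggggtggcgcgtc
HSP90AB1: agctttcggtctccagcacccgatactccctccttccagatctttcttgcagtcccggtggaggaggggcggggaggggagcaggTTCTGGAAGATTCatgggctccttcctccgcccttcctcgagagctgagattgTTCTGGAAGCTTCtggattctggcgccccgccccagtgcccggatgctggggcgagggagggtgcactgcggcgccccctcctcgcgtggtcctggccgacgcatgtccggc
HSPD1: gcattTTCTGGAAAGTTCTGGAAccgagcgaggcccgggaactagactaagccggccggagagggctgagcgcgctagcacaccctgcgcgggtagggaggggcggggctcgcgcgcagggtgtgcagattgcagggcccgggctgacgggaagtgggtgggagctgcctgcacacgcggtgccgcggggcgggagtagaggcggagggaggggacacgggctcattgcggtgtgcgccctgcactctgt

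Searched on both strands, where each of these palindromic motifs reads the same and one can overlap the other, GAANNTTC stood in 6.77% and TTCNNGAA in 7.74% of all 35116 promoter windows of 300 bases (250 before and 50 after a start). A window with either motif was found for 6 of the 9 members (the 5 shown and HSPA4L), against 13.5% of all windows, and 3 inverted units in a row for 4 members (HSPA8, HSP90AA1, HSP90AB1 and HSPD1), against 0.49%. Several members have more than 1 start in the table, so that a member had more chances of a match than a single window. For such genes the window printed was picked because it holds marked pairs. The other windows of HSP90AB1, HSP90AA1 and HSPD1 hold none, and of the 2 other DNAJB1 windows 1 holds a pair just after the start. HSPA4L, not printed, has 1 pair in 1 of its 3 windows, and HSPA4, HSPH1 and HSPE1 have none. TATAAA was found for 1 member and in 11.5% of windows, CCAAT for 4 members and in 34.6%. HSPD1 and HSPE1 are read in opposite directions from starts 539 bp apart, and the capitals of HSPD1 lie before the HSPE1 start but outside the window of that gene. The 4 genes with 3 units in a row did not change alike, as the values below show.

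The libraries sample transcript 3′ ends and held 439261 to 4337368 counts of human genes and 10950 to 72684 counts of spike-in RNA. Levels are CPM, counts scaled to a common library size set by the spike-ins, and fold changes are log2 values ± SE against the DMSO of the same line, with 3 libraries per arm. A gene is written as having fallen or risen only where edgeR's quasi-likelihood test gave a Benjamini-Hochberg adjusted p under 0.05 over all 12515 genes tested. On this scale the median gene moved by -3.67 with dBET6, -2.86 with THAL-SNS-032, -2.93 in the CDK9 line and -0.69 in the MED14 line, and by -0.27 (MED6) to 0.09 (wild-type cells with dTAG7) elsewhere. A second scale, TMM, sets the bulk of transcripts to no change (12973 genes tested). Among pairs of replicates the chi-square per degree of freedom ran from 1.34 to 20.2, with 13 pairs above 4. The libraries that stood apart were MED12 DMSO B, MED12 dTAG7 C, MED26 DMSO A, MED31 DMSO A, MED31 dTAG7 A and MED6 dTAG7 A. Replicates B and C also stood apart from each other with dBET6 (6.429) and with THAL-SNS-032 (5.375). The KBM7 markers CD33, KIT, CD34, GATA2, TAL1, LYL1, MYB and PTPRC were counted in every DMSO library, GATA1 ran from 0.31 to 48.7 CPM, and the T-cell marker CD3E stayed at or below 3.61 CPM. mRNA of the tagged genes is no check of degradation, since the tag acts on the protein. In its own line CDK9 mRNA went from a mean of 5.52 to 0.583 CPM and MED14 mRNA from 29.5 to 20.4 CPM.

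In the 3 settings with the deepest loss of RNA all 9 members fell: with dBET6, with THAL-SNS-032 and with dTAG7 in the CDK9 line. So did 97.1%, 96.2% and 95.3% of all genes tested, which means that these counts say nothing particular about chaperones. In the MED14 line all 9 fell too, against 62.7% of genes. In the MED10 and MED6 lines 7 of 9 fell, against 18.9% and 18.2% of genes, and the exceptions in both lines were DNAJB1 and HSPE1. The median member was at -0.38 in the MED10 and -0.39 in the MED6 line, against -0.19 and -0.27 for the median gene. On the TMM scale only 2 and 1 members fell in these lines. The call of 7 in the MED6 line shrank to 1, HSPA8, when only the 6 libraries of that line were fitted. In the MED26 line 4 members fell (2.99% of genes), in the MED28 and MED31 lines 1 each (4.14% and 2.65% of genes), and in the MED12 line none (3.32% of genes). No member fell with dTAG7 in wild-type cells or in the MED1 line, where 0% of genes did. Spike-ins were added per equal number of cells, and the spike-in scale measures RNA per cell as far as that match held. Cell counts per library were not available here, so an error in the match and less RNA per cell were not told apart.

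**Figure D1:**
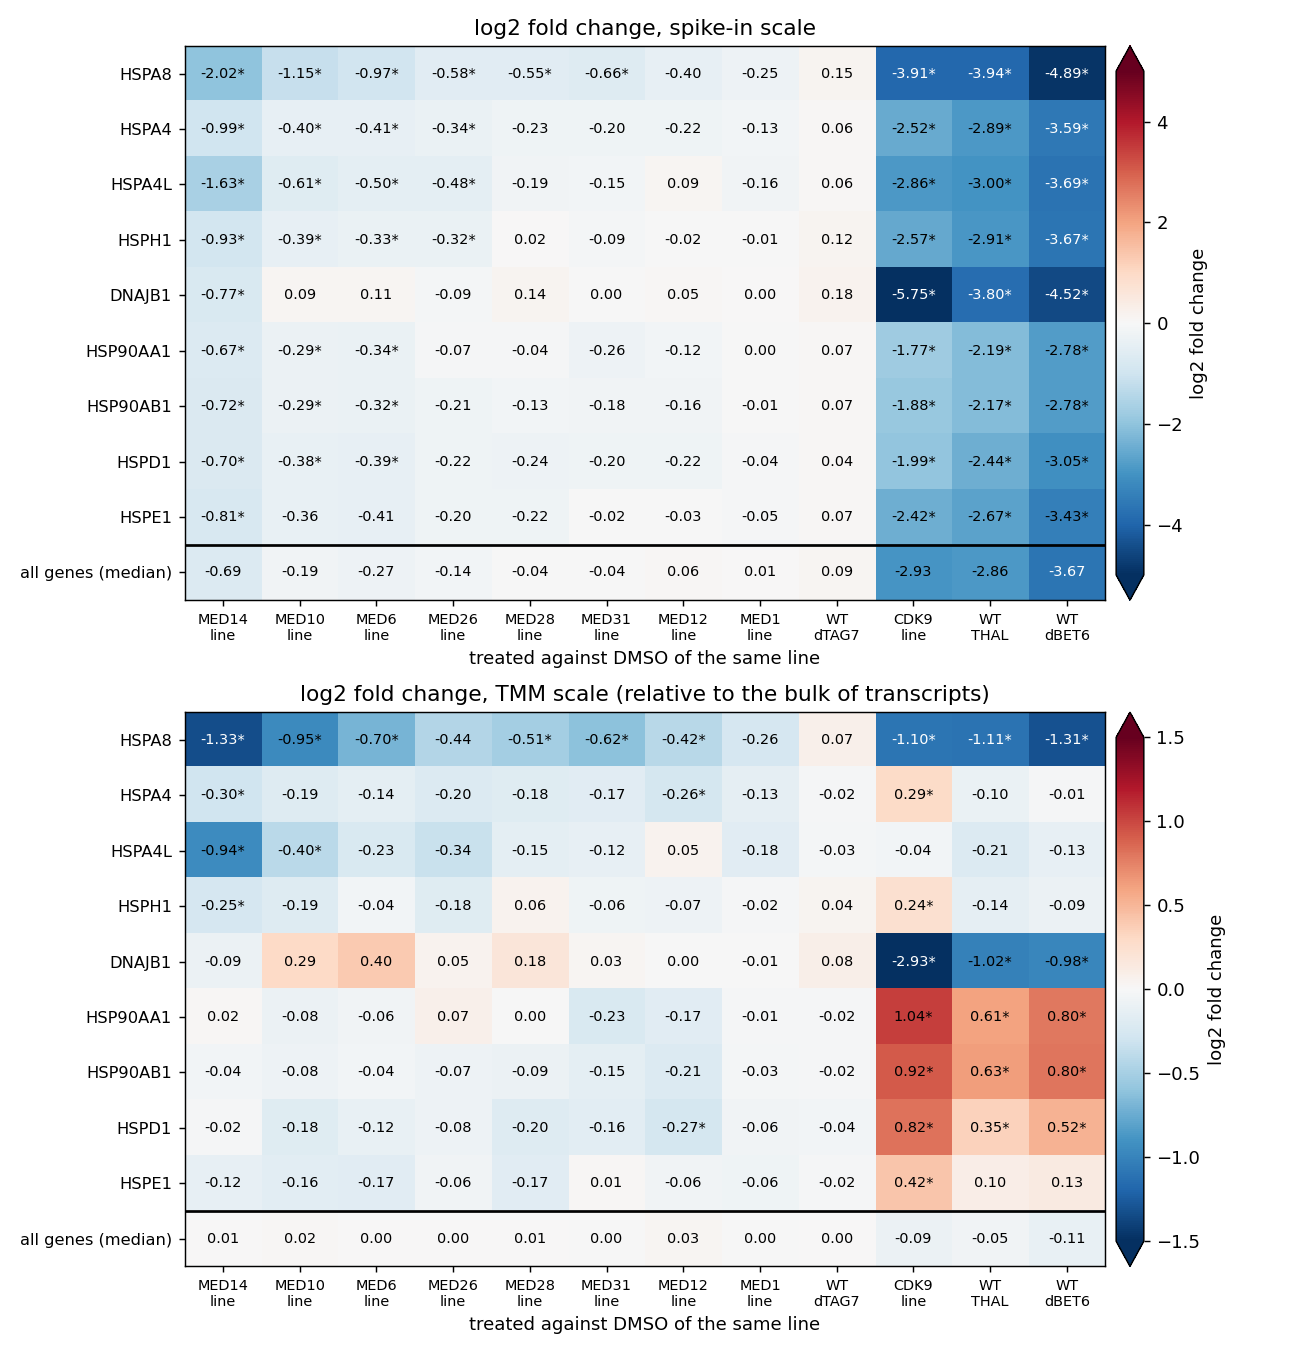
Log2 fold change of each member (rows) in each of the 12 comparisons with the DMSO of the same line (columns), on the spike-in scale above and the TMM scale below, with the median of all tested genes as the last row and an asterisk where edgeR's adjusted p was under 0.05. HSPA8 is the lowest member in the MED14, MED10 and MED6 lines on both scales, at -2.02, -1.15 and -0.97 on the spike-in scale, and DNAJB1 is the lowest in the CDK9 line, at -5.75.

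HSPA8 (ENSG00000109971, chr11:123057489-123063230, minus strand) encodes the HSP70 that cells make without stress. It fell in 6 of the 8 Mediator lines, and most in the MED14 line. There, DMSO replicates A, B and C stood at 260.1, 319 and 285.5 CPM and the dTAG7 replicates at 73.2, 55.9 and 81.6 CPM, a mean of 24.4% of DMSO. The arms were far apart, and the change of -2.02 ± 0.16 (edgeR adjusted p = 1.86e-15) placed HSPA8 as the 373rd lowest of 12515 genes. The change was still -1.33 ± 0.14 on the TMM scale (rank 395 of 12973), so HSPA8 fell beyond the bulk of transcripts.

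The MED10 and MED6 lines came next. HSPA8 went from 471, 326 and 362 CPM to 194, 189 and 141 CPM in the MED10 line (-1.15 ± 0.16) and from 426, 371 and 359 CPM to 179, 214.5 and 197 CPM in the MED6 line (-0.97 ± 0.16). In neither line did the arms overlap. Without MED6 dTAG7 replicate A, which stood furthest from its replicates over all genes, the MED6 value was -0.90. Relative to the bulk, on the TMM scale the changes were -0.95 ± 0.13 and -0.70 ± 0.13. Smaller falls were measured in the MED31 line, from 399.5, 265.5 and 282 CPM to 216, 191 and 192 CPM (-0.66 ± 0.15, edgeR adjusted p = 0.00786), and in the MED26 line, from 304, 280.2 and 269 CPM to 187, 202 and 181 CPM (-0.58 ± 0.16, adjusted p = 0.024). In the MED28 line HSPA8 went from 421, 313 and 377 CPM to 289.9, 222 and 246 CPM (-0.55 ± 0.15, edgeR adjusted p = 0.0222). The arms did not overlap in these 3 lines, but each call depended on single libraries. Without MED31 DMSO replicate A, the MED31 value was -0.46 (adjusted p = 0.149). Leaving out any 1 of DMSO A, DMSO C, dTAG7 B and dTAG7 C ended the MED28 call (edgeR adjusted p from 0.0731 to 0.171). The MED26 call ended in the same way without DMSO A, DMSO B, dTAG7 A or dTAG7 C (adjusted p from 0.0664 to 0.113).

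HSPA8 did not pass the test in the MED12 line, where DMSO replicate B stood apart. Its values were 307, 174 and 254 CPM in DMSO and 189, 181 and 188 CPM with dTAG7, so the arms overlapped through replicate B alone. The change was -0.40 ± 0.16 (edgeR adjusted p = 0.141) with that library and -0.59 (adjusted p = 0.0136) without it. In the MED1 line the change was -0.25 ± 0.15, from 414, 329 and 371 CPM to 318, 313 and 307 CPM. Wild-type cells held 311, 397 and 287 CPM in DMSO and 389.8, 359.7 and 352.5 CPM with dTAG7 (0.15 ± 0.15), with overlapping arms.

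After CDK9 or BET loss HSPA8 was reduced to a few percent of its level. In the CDK9 line it went from 270.4, 298 and 250.8 CPM to 15.1, 20.4 and 20.7 CPM, in wild-type cells to 16.7, 22.6 and 25.5 CPM with THAL-SNS-032 and to 8.81, 12.1 and 12.45 CPM with dBET6. Its log2 changes were -3.91 ± 0.19, -3.94 ± 0.18 and -4.89 ± 0.19, or 6.87%, 6.51% and 3.35% of DMSO. Relative to the bulk of transcripts (TMM) they were -1.10 ± 0.16, -1.11 ± 0.15 and -1.31 ± 0.17, all of which passed the edgeR test. The MED14, CDK9, THAL-SNS-032 and dBET6 values on the TMM scale thus spanned only -1.33 to -1.10, although the median gene on the spike-in scale lay at -0.69 in the first and at -3.67 in the last. Counts of HSPA8 ran from 49 to 1495 per library.

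**Figure D2:**
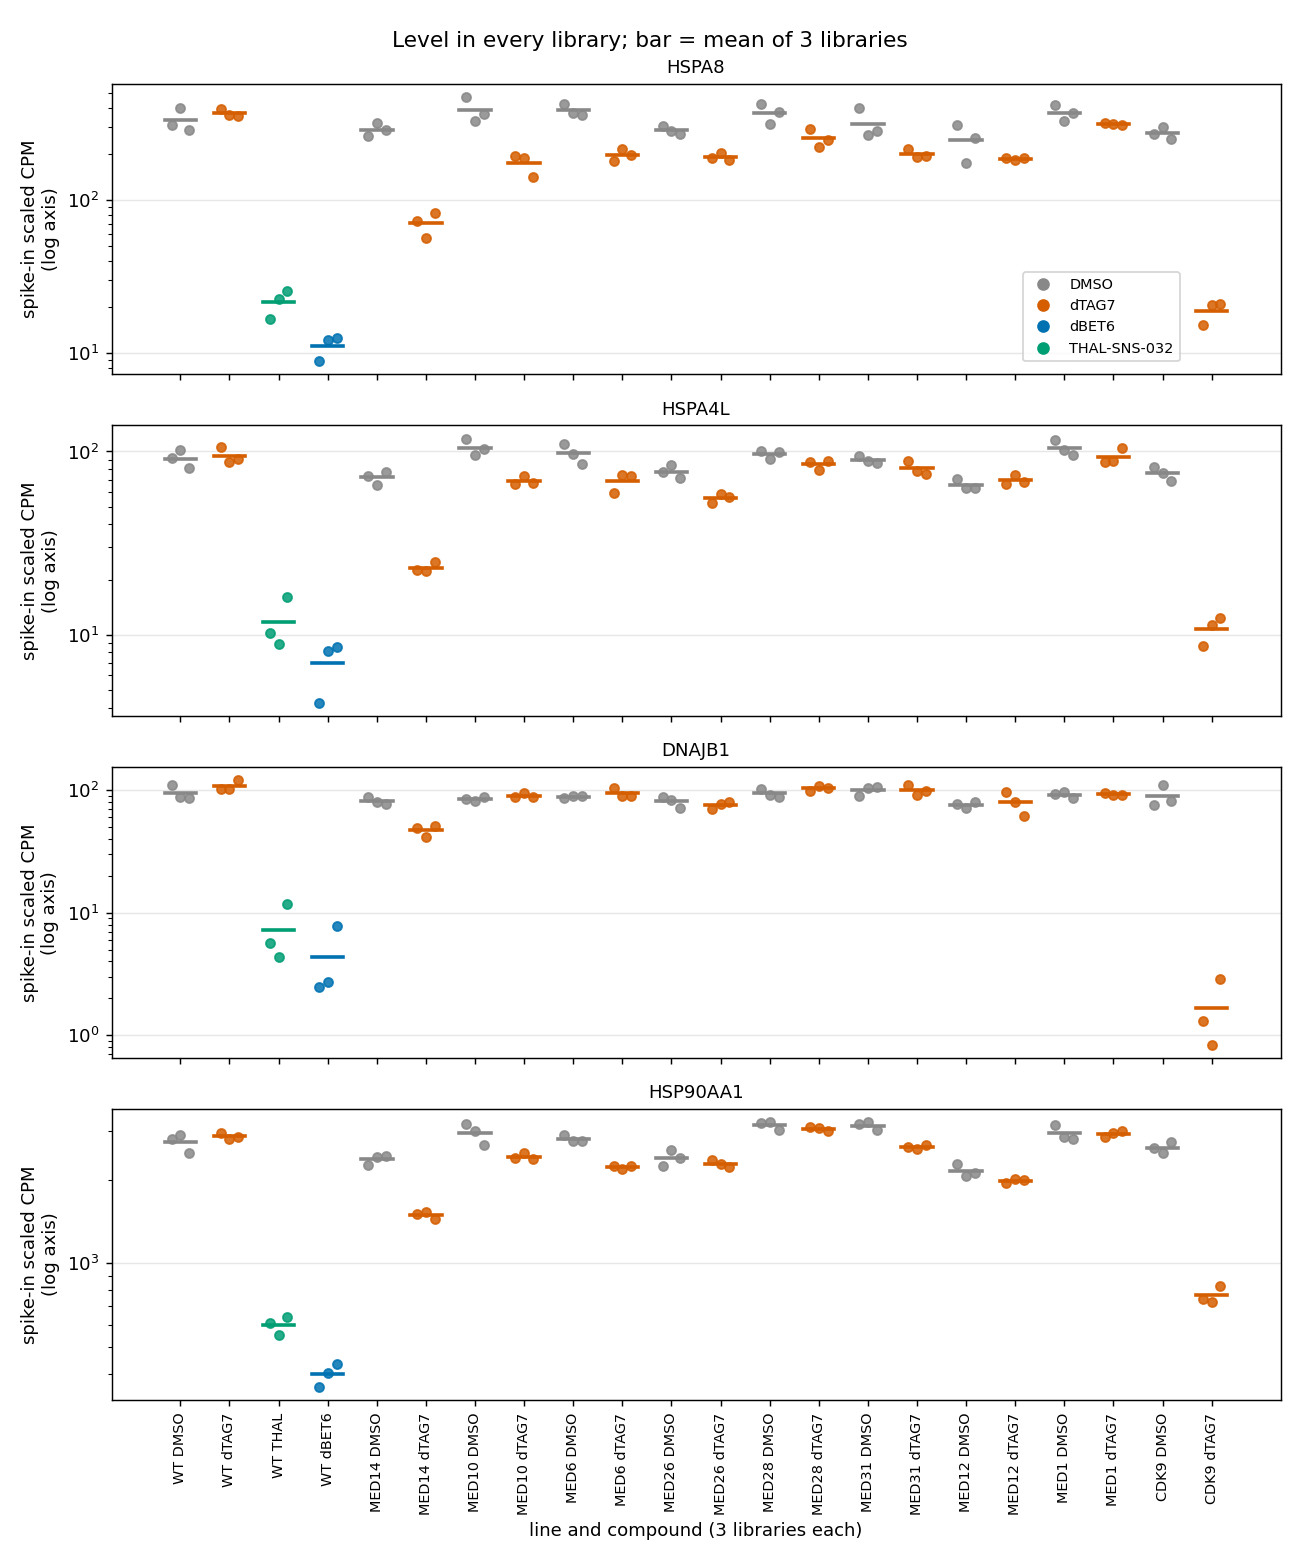
Level of HSPA8, HSPA4L, DNAJB1 and HSP90AA1 in every library in spike-in scaled CPM on a log axis, by line and compound (WT, wild-type; THAL, THAL-SNS-032), with a bar at the mean of 3 libraries. HSPA8 lies between 55.9 and 81.6 CPM in the MED14 line with dTAG7 and DNAJB1 between 0.834 and 2.89 CPM in the CDK9 line with dTAG7, while HSP90AA1 stays above 359 CPM in every library.

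The 3 HSP110-type exchange factors differed from each other. HSPA4L (ENSG00000164070, chr4:127781821-127840733, plus strand) fell most after HSPA8 in the MED14 line, from 73.7, 65.7 and 77 CPM to 22.4, 22.4 and 24.8 CPM. This was -1.63 ± 0.15 on the spike-in scale and -0.94 ± 0.12 on the TMM scale. HSPA4 (ENSG00000170606, chr5:133051962-133106449, plus strand) went there from 179, 219 and 218 CPM to 107, 108.5 and 96.1 CPM (-0.99 ± 0.10). HSPH1 (ENSG00000120694, chr13:31134974-31162388, minus strand), the HSP110 protein that also prevents aggregation itself, went from 378, 435 and 378 CPM to 212, 210.1 and 201.5 CPM (-0.93 ± 0.10). The arms of these 3 genes did not overlap in this line. By the edgeR test 62.7% of all genes fell there, and the share of genes without overlap was not counted.

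Set against the bulk of transcripts, HSPA4 and HSPH1 changed little in the MED14 line. Their TMM values were -0.30 ± 0.08 and -0.25 ± 0.09, both called by edgeR, but neither call held without dTAG7 replicate C (adjusted p = 0.0592 and 0.0888), and that of HSPH1 ended without DMSO B as well (0.11). In the MED10 line all 3 fell on the spike-in scale (HSPA4L -0.61 ± 0.13, HSPA4 -0.40 ± 0.10, HSPH1 -0.39 ± 0.09), and HSPA4L also on the TMM scale (-0.40 ± 0.11). In the MED6 line they fell by 0.50 ± 0.13, 0.41 ± 0.10 and 0.33 ± 0.09 on the spike-in scale, and none passed on the TMM scale. The HSPA4L call in the MED6 line was lost without dTAG7 replicate A (edgeR adjusted p = 0.0768) and that of HSPH1 without DMSO replicate A (0.0526). The 3 also fell in the MED26 line (-0.48, -0.34 and -0.32, edgeR adjusted p = 0.0302, 0.0443 and 0.0422), where the calls depended on single libraries: that of HSPA4 ended without DMSO A, DMSO B, dTAG7 A or dTAG7 C, that of HSPA4L without these or dTAG7 B, and that of HSPH1 without any 1 of the 6.

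The exchange factors lost RNA with the bulk after CDK9 or BET loss. In the CDK9 line HSPA4, HSPA4L and HSPH1 changed by -2.52 ± 0.11, -2.86 ± 0.16 and -2.57 ± 0.10, against a median gene at -2.93. With dBET6 they changed by -3.59 ± 0.12, -3.69 ± 0.16 and -3.67 ± 0.11, against -3.67. HSPA4 and HSPH1 were therefore higher on the TMM scale in the CDK9 line (0.29 ± 0.09 and 0.24 ± 0.09) although they fell on the spike-in scale, and HSPA4L was not called (-0.04 ± 0.14). The TMM call of HSPA4 was lost without CDK9 dTAG7 replicate B (0.18, edgeR adjusted p = 0.124), that of HSPH1 without DMSO B (adjusted p = 0.0664) or dTAG7 A (0.114).

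DNAJB1 (ENSG00000132002, chr19:14514770-14529770, minus strand), the J-domain partner that hands substrates to HSP70, did not follow HSPA8 in the MED10 and MED6 lines. In the MED10 line it lay at 84.1, 81.8 and 87.8 CPM in DMSO and at 88.5, 94.3 and 88.3 CPM with dTAG7, so every treated library was above every DMSO library (0.09 ± 0.16, edgeR adjusted p = 0.734). In the MED6 line it went from 86.4, 88.8 and 89.2 CPM to 104.8, 90.4 and 89.3 CPM (0.11 ± 0.16, adjusted p = 0.67), again with no overlap. Neither value passed the test. Its TMM value in the MED6 line was 0.40 ± 0.15 (edgeR adjusted p = 0.0913), and it passed without dTAG7 replicate B or C (0.49 and 0.50). Only in the MED14 line did DNAJB1 fall among the Mediator lines, from 88.7, 79.5 and 77.3 CPM to 49.4, 41.3 and 51.1 CPM (-0.77 ± 0.16), and on the TMM scale that change was -0.09 ± 0.15.

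In the CDK9 line DNAJB1 fell further than any other member. The CDK9 line held 75.2, 110.7 and 81.9 CPM in DMSO and 1.31, 0.834 and 2.89 CPM with dTAG7, from 12, 2 and 11 counts, a mean of 1.88% of DMSO. This change of -5.75 ± 0.26 put DNAJB1 at rank 145 of 12515 genes from the lowest, and at -2.93 ± 0.29 on the TMM scale. In wild-type cells, where DMSO replicates stood at 110.1, 88.7 and 85.8 CPM, it was 5.66, 4.37 and 11.7 CPM with THAL-SNS-032 (-3.80 ± 0.20) and 2.47, 2.73 and 7.76 CPM with dBET6 (-4.52 ± 0.21). The TMM values were -1.02 ± 0.20 and -0.98 ± 0.23, and replicate C was the highest in both groups. Exons of DNAJB1 and TECR overlap on opposite strands, and whether strand was used in counting is not given in the sources used here.

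The fall of DNAJB1 in the CDK9 line was compared with that after THAL-SNS-032 in 1 model, a contrast chosen after these values were seen. The effect in the CDK9 line was lower by 1.95 ± 0.38 (edgeR adjusted p = 0.00156), and by 1.91 ± 0.39 on the TMM scale (adjusted p = 0.00183). In this contrast 2.33% of genes were lower (TMM 3.74%) and 0.439% higher (TMM 1.87%). The call rests on CDK9 dTAG7 replicate A: without it the difference was -1.61 (edgeR adjusted p = 0.0985), and without any other of the 12 libraries it lay between -2.38 and -1.48 and passed. HSP90AA1 and HSPD1 were the other 2 members that differed, with smaller losses in the CDK9 line, by 0.42 ± 0.11 and 0.46 ± 0.12 (both adjusted p = 0.0249). The HSP90AA1 call was lost without CDK9 DMSO replicate B, CDK9 dTAG7 replicate A or C, or wild-type DMSO replicate A or B, that of HSPD1 without CDK9 DMSO replicate B, CDK9 dTAG7 replicate A or B, wild-type DMSO replicate A or B, or THAL-SNS-032 replicate A. Line and route of CDK9 loss differ together here and cannot be told apart.

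HSP90AA1 (ENSG00000080824, chr14:102080738-102139699, minus strand) encodes the HSP90 that stress induces and HSP90AB1 (ENSG00000096384, chr6:44246166-44253888, plus strand) the form made at all times. The pair kept in step with each other. In the MED14 line HSP90AA1 went from 2270.0, 2411 and 2436 CPM to 1502, 1534 and 1450.0 CPM (-0.67 ± 0.08) and HSP90AB1 from 2697, 2910.0 and 2941 CPM to 1732, 1740.0 and 1717 CPM (-0.72 ± 0.07). Both values were close to that of the median gene in that line, -0.69, and on the TMM scale they were at 0.02 ± 0.08 and -0.04 ± 0.08. In the MED10 line they fell by 0.29 ± 0.08 and 0.29 ± 0.07, in the MED6 line by 0.34 ± 0.08 and 0.32 ± 0.07, with no call on the TMM scale. The HSP90AA1 call in the MED10 line was lost without DMSO replicate A (edgeR adjusted p = 0.0604).

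After CDK9 or BET loss the HSP90 genes lost less RNA than most genes. HSP90AA1 went from 2609, 2495 and 2738 CPM to 743.5, 728 and 831.5 CPM in the CDK9 line, and from 2809, 2909 and 2496 CPM in wild-type DMSO to 611, 552 and 641 CPM with THAL-SNS-032 and 359, 402 and 434 CPM with dBET6. The changes were -1.77 ± 0.08, -2.19 ± 0.08 and -2.78 ± 0.08, and those of HSP90AB1 -1.88 ± 0.07, -2.17 ± 0.07 and -2.78 ± 0.08. Because the median gene fell further, on the TMM scale, unlike the spike-in scale, HSP90AA1 was higher by 1.04 ± 0.08, 0.61 ± 0.08 and 0.80 ± 0.08 and HSP90AB1 by 0.92 ± 0.08, 0.63 ± 0.08 and 0.80 ± 0.08. Exons of HSP90AA1 and WDR20 overlap on opposite strands, and 3 pseudogenes of HSP90AB1 and 1 of HSP90AA1 are in the count table, so their counts are uncertain where reads could not be placed.

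HSPD1 (ENSG00000144381, chr2:197486581-197516737, minus strand) forms the mitochondrial chaperonin ring and HSPE1 (ENSG00000115541, chr2:197499994-197503457, plus strand) its lid. HSPD1 fell in the MED14 line from 988.4, 1085 and 1065 CPM to 648, 635 and 643 CPM (-0.70 ± 0.09), and HSPE1 from 221, 249 and 236 CPM to 130.4, 126.5 and 146 CPM (-0.81 ± 0.16). As for the HSP90 genes, the bulk of transcripts moved by as much, with TMM values of -0.02 ± 0.08 and -0.12 ± 0.11. In the MED10 and MED6 lines HSPD1 fell by 0.38 ± 0.09 and 0.39 ± 0.09 on the spike-in scale and was not called on the TMM scale. HSPE1 was at -0.36 ± 0.16 and -0.41 ± 0.16 (edgeR adjusted p = 0.0959 and 0.0584). Its MED6 value rests on dTAG7 replicate A at 122 CPM beside 219.6 and 226 CPM: it was -0.17 without that library and passed without replicate B or C (-0.54 and -0.56).

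In the CDK9 line HSPD1 went from 1201, 1200.0 and 1208 CPM to 289, 322 and 299 CPM (-1.99 ± 0.09), and with dBET6 from 1273, 1372 and 1125 CPM to 139, 150.4 and 164 CPM (-3.05 ± 0.09). HSPE1 changed by -2.42 ± 0.17 and -3.43 ± 0.18. With THAL-SNS-032 the changes were -2.44 ± 0.09 for HSPD1 and -2.67 ± 0.17 for HSPE1. On the TMM scale HSPD1, which fell on the spike-in scale, was higher in all 3 settings (0.82 ± 0.08 in the CDK9 line, 0.35 ± 0.08 with THAL-SNS-032 and 0.52 ± 0.08 with dBET6). HSPE1 was higher on that scale in the CDK9 line alone (0.42 ± 0.12), and that call was lost without dTAG7 replicate A (0.17, edgeR adjusted p = 0.352). Exons of HSPD1 and HSPE1 overlap on opposite strands, and 4 pseudogenes of HSPD1 are in the count table.

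On the TMM scale 4 members fell in the MED14 line (HSPA8, HSPA4L, HSPA4 and HSPH1), against 16.5% of genes, and 2 in the MED10 line (9.87%). HSPA8 was the only member to fall in the MED6, MED28 and MED31 lines (3.55%, 4.33% and 3.04% of genes), and its call in the MED28 line was lost without dTAG7 replicate B (edgeR adjusted p = 0.0685). In the MED12 line HSPA8, HSPA4 and HSPD1 fell by 0.42 ± 0.13, 0.26 ± 0.08 and 0.27 ± 0.08 (5.61% of genes). Without DMSO B the HSPA4 and HSPD1 calls ended there (edgeR adjusted p = 0.205 and 0.222). That of HSPD1 also ended without dTAG7 C, and that of HSPA8 without DMSO A, dTAG7 A or dTAG7 B. No member was called in the MED26 line (1.37% of genes), the MED1 line (0.00771%) or wild-type cells with dTAG7 (0%). In the CDK9 line 2 members were lower (27% of genes) and 6 higher (20.6%), with dBET6 2 lower (23.6%) and 3 higher (17.6%), and with THAL-SNS-032 2 lower (16.1%) and 3 higher (13.5%). The lower members were HSPA8 and DNAJB1 in all 3.

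Several comparisons addressed whether these effects belong to the tagged lines. Against the effect of dTAG7 in wild-type cells, the effect was lower for 9 members in the MED14 line (56.7% of genes), 9 in the CDK9 line (93.8%), 7 in the MED10 line (13.9%) and 7 in the MED6 line (10.6%). For HSPA8 these differences were -2.17 ± 0.22, -4.06 ± 0.24, -1.30 ± 0.22 and -1.12 ± 0.22. In the MED31, MED26 and MED28 lines the HSPA8 differences of -0.81, -0.73 and -0.70 did not pass (edgeR adjusted p = 0.0566, 0.074 and 0.0793), so the falls there were not shown to differ from the wild-type response. All 3 passed without wild-type DMSO replicate B (-0.88 in the MED26, -0.85 in the MED28 and -0.96 in the MED31 line), where HSPA8 was highest in that group, and the MED12 difference passed without MED12 DMSO replicate B (-0.75, edgeR adjusted p = 0.0342). The MED6 count shrank to 2 without wild-type DMSO replicate C and to 4 without MED6 DMSO replicate A, MED6 dTAG7 replicate A or wild-type dTAG7 replicate A, and the MED10 count to 4 without MED10 DMSO replicate A or wild-type DMSO replicate C. HSPA8 was among those left each time.

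Whether the dTAG7 effect varied among the 8 Mediator lines was tested with 1 F test per gene. All 9 members varied on the spike-in scale, where 45.6% of genes did. On the TMM scale HSPA8 (edgeR adjusted p = 0.000354) and HSPA4L (adjusted p = 0.000114) did and the other 7 did not pass (lowest adjusted p 0.345), against 12.5% of genes. The change beyond the bulk thus varied with the tagged line for HSPA8 and HSPA4L, and such a variation was not detected for the other members.

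Before any compound was added, members differed from wild-type DMSO on the spike-in scale in the MED12 and MED14 lines only. In MED12 DMSO the median member was at -0.35, against -0.06 for the median gene. On the TMM scale 5 members were lower in MED12 DMSO (5.62% of genes) and 0 in MED14 DMSO (3.14%). HSPA4L, HSP90AA1, HSP90AB1 and HSPD1 were lower in MED12 DMSO than in wild-type DMSO, by 0.47, 0.35, 0.25 and 0.36 log2 (4.39% of genes lower), and HSP90AB1 and HSPD1 lower in MED14 DMSO by 0.23 and 0.26 (9% of genes). The HSP90AB1 call in the MED12 line was lost without MED12 DMSO replicate B or wild-type DMSO replicate B and the HSPA4L call without the latter. Both MED14 calls were lost without MED14 DMSO replicate A or wild-type DMSO replicate A or B, and that of HSPD1 also without MED14 DMSO replicate C. The MED12 line had the lowest mean in DMSO of all lines for 8 members, and the highest line lay at most 1.76 times above the lowest. The share of all genes lowest in that line was not counted, so this count says nothing particular about chaperones.

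dBET6 and THAL-SNS-032 were given at different doses, 100 and 250 nM, to the same wild-type cells. All 9 members were lower with dBET6, by 0.59 to 0.96 log2, as were 53% of genes. No member differed on the TMM scale (4.72% of genes did in either direction), with values from -0.20 for HSPA8 to 0.19 for HSP90AA1. The DNAJB1 difference on the spike-in scale (-0.72 ± 0.28) was lost without dBET6 replicate A or B or THAL-SNS-032 replicate C, where it lay between -0.47 and -0.25, and that of HSPA4L (-0.69 ± 0.19) without dBET6 replicate A or THAL-SNS-032 replicate C.

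Ratios of 2 members within a library need no scale. The log2 ratio of DNAJB1 to HSPA8 counts in the MED14 line went from -1.55, -2.00 and -1.88 in DMSO to -0.57, -0.44 and -0.68 with dTAG7, a rise of 1.25. It was 1.24 higher in the MED10 line, 1.07 in the MED6 line, 0.69 in the MED28 line, 0.64 in the MED31 line and 0.49 in the MED26 line, with all treated libraries above all DMSO libraries in each. In the CDK9 line the ratio moved the other way, from -1.85, -1.43 and -1.61 to -3.53, -4.62 and -2.84, or by -2.03. With THAL-SNS-032, dBET6 and dTAG7 in wild-type cells it changed by 0.12, 0.25 and 0.03, and the arms overlapped, as in the MED12 and MED1 lines (0.41 and 0.25). Each comparison without overlap had an exact permutation p of 0.1, the smallest that 3 against 3 allows (two-sided, n = 3 per arm), and an adjusted p of 0.25 over the 60 ratio tests, so none could pass.

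The ratio of HSPH1 to HSPA8 was higher in every treated library than in every DMSO library in 10 of the 12 comparisons. The difference was 1.31 in the CDK9 line, 1.23 with dBET6, 1.12 in the MED14 line and 1.02 with THAL-SNS-032, and from 0.24 (MED1) to 0.76 (MED10) in the MED1, MED6, MED10, MED26, MED28 and MED31 lines. The exceptions were the MED12 line (0.34, with overlap) and wild-type cells with dTAG7 (-0.03). The ratio of HSPA4L to HSPA4 changed by -0.66 in the MED14 line and by 0.31 in the MED12 line, both with no overlap. The ratio of HSPD1 to HSPE1 was 0.47 higher in the CDK9 line, with no overlap. HSP90AA1 to HSP90AB1 had the narrowest range of the 5 pairs, from -0.08 to 0.15 over the 12 comparisons. Its arms did not overlap in 4 of them, with higher ratios in the MED14, MED26 and MED28 lines and lower ones in the MED31 line.

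**Figure D3:**
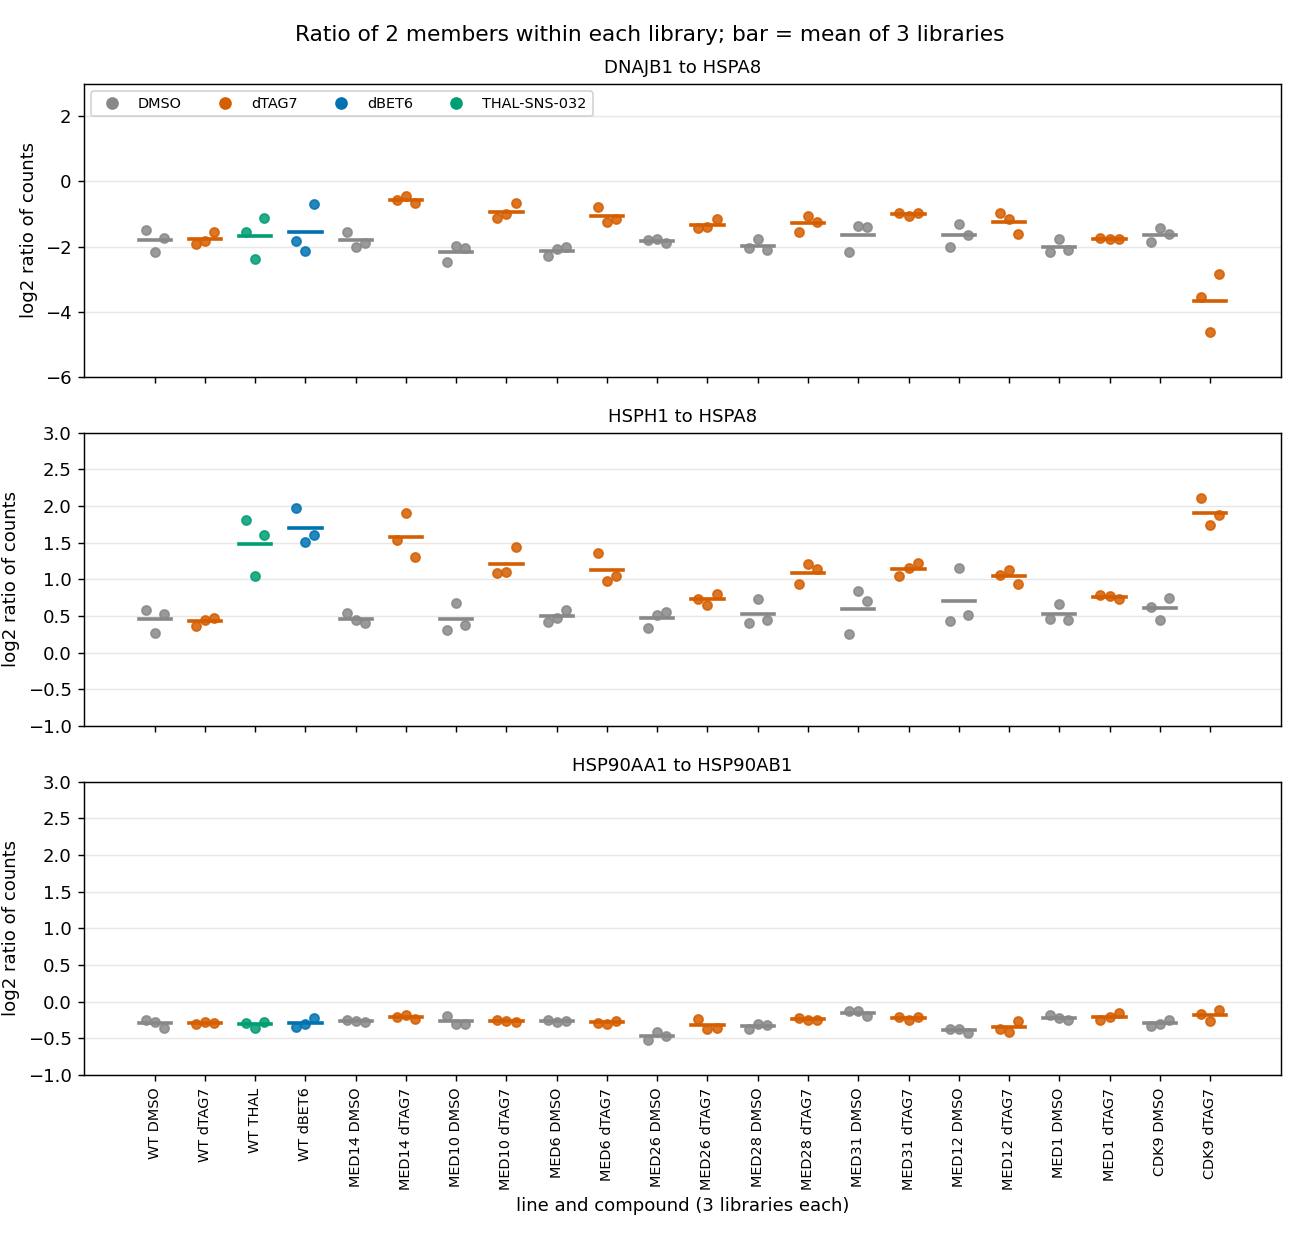
Log2 ratio of the counts of 2 members within each library, by line and compound (WT, wild-type; THAL, THAL-SNS-032), with a bar at the mean of 3 libraries, for DNAJB1 to HSPA8, HSPH1 to HSPA8 and HSP90AA1 to HSP90AB1. The DNAJB1 to HSPA8 ratio is higher with dTAG7 in the MED14 line (by 1.25) and lower in the CDK9 line (by 2.03 log2), while the HSP90 ratio differs by at most 0.15 between arms.

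The heat shock regulators and other chaperones were read from 8 lists. HSF1, the activator itself, fell in the MED14 line by 1.11 ± 0.13 (TMM -0.42 ± 0.14, edgeR adjusted p = 0.0128) and in the MED10 line by 0.57 ± 0.12 (TMM -0.35 ± 0.13, adjusted p = 0.0499). HSF2, its paralogue, was not called on the TMM scale in the MED14 line (0.16 ± 0.12). On that scale HSF2 fell beyond the bulk in the CDK9 line (-1.83 ± 0.19), with dBET6 (-1.94 ± 0.22) and, by less, with THAL-SNS-032 (-0.85 ± 0.16). HSF4 and the HSF1 binding protein HSBP1 also fell in the MED14 line on the spike-in scale, so that 4 of 4 regulators did, against 62.7% of all genes.

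Relative to the bulk (TMM) in the MED14 line, where the median gene was at 0.01, 16.5% of genes were lower and 13% higher, the list of HSP90 partner proteins had 7 of 21 lower and 1 higher (median -0.24), led by CHORDC1 (-0.88 ± 0.13). Of the TRiC chaperonin and prefoldin, which fold actin and tubulin, 5 of 14 were lower and none higher (median -0.11), with CCT2 lowest (-0.43 ± 0.10). Of the other J-domain proteins 6 of 28 were lower, with the ribosome-associated DNAJC2 lowest (-1.01 ± 0.09), and 5 were higher, with DNAJB4 highest (1.84 ± 0.20, and 1.15 ± 0.21 on the spike-in scale). DNAJB4 was the only gene of the lists to rise on both scales in this line. Of the other HSP70 proteins and exchange factors 2 of 14 were lower, with BAG2 lowest (-0.77 ± 0.17). The endoplasmic reticulum chaperones had 3 of 18 lower and 3 higher (median 0.03), with HSPA5, the HSP70 of that compartment, lowest (-0.98 ± 0.09), and the mitochondrial proteases and unfoldases 2 of 8 lower, with AFG3L2 lowest (-0.37 ± 0.10), and 1 higher, YME1L1 (0.30 ± 0.09).

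With dBET6, THAL-SNS-032 and dTAG7 in the CDK9 line every tested gene of each list fell on the spike-in scale, as did 97.1%, 96.2% and 95.3% of all genes, so the lists do not stand out there. Relative to the bulk (TMM) with dBET6, where the median gene was at -0.11, 23.6% of all genes were lower and 17.6% higher, the TRiC and prefoldin genes had none lower and 5 of 14 higher (median 0.19, PFDN5 highest at 0.66 ± 0.15), as HSP90AA1 and HSPD1 did. Of the endoplasmic reticulum chaperones 8 of 18 were higher (DNAJC10 highest, 0.69 ± 0.13) and 3 lower. The J-domain proteins had 9 of 28 lower and 2 higher (median -0.40, DNAJC8 highest at 0.61 ± 0.08), the HSP70 proteins and exchange factors 5 of 14 lower and 2 higher (median -0.43, BAG2 lowest at -2.16 ± 0.32), and the HSP90 partners 8 of 21 lower and 2 higher (median -0.17). CLPX, the mitochondrial unfoldase, was lowest in its list of 8, of which 3 were lower and 1 higher (-1.04 ± 0.16). Low counts limit 3 of the lowest genes. DNAJB5 had 36 counts in DMSO and 0 with dBET6, and with 3 counts over the group as the floor it was at least 24-fold lower on the spike-in scale. TTC4 had 64 and 2 counts, or 1.56% of DMSO (exact 95% interval 0.185 to 5.88%, counting error only), and DNAJB9 59 and 3 counts, or 2.54% (0.509 to 7.8%).

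**Figure D4:**
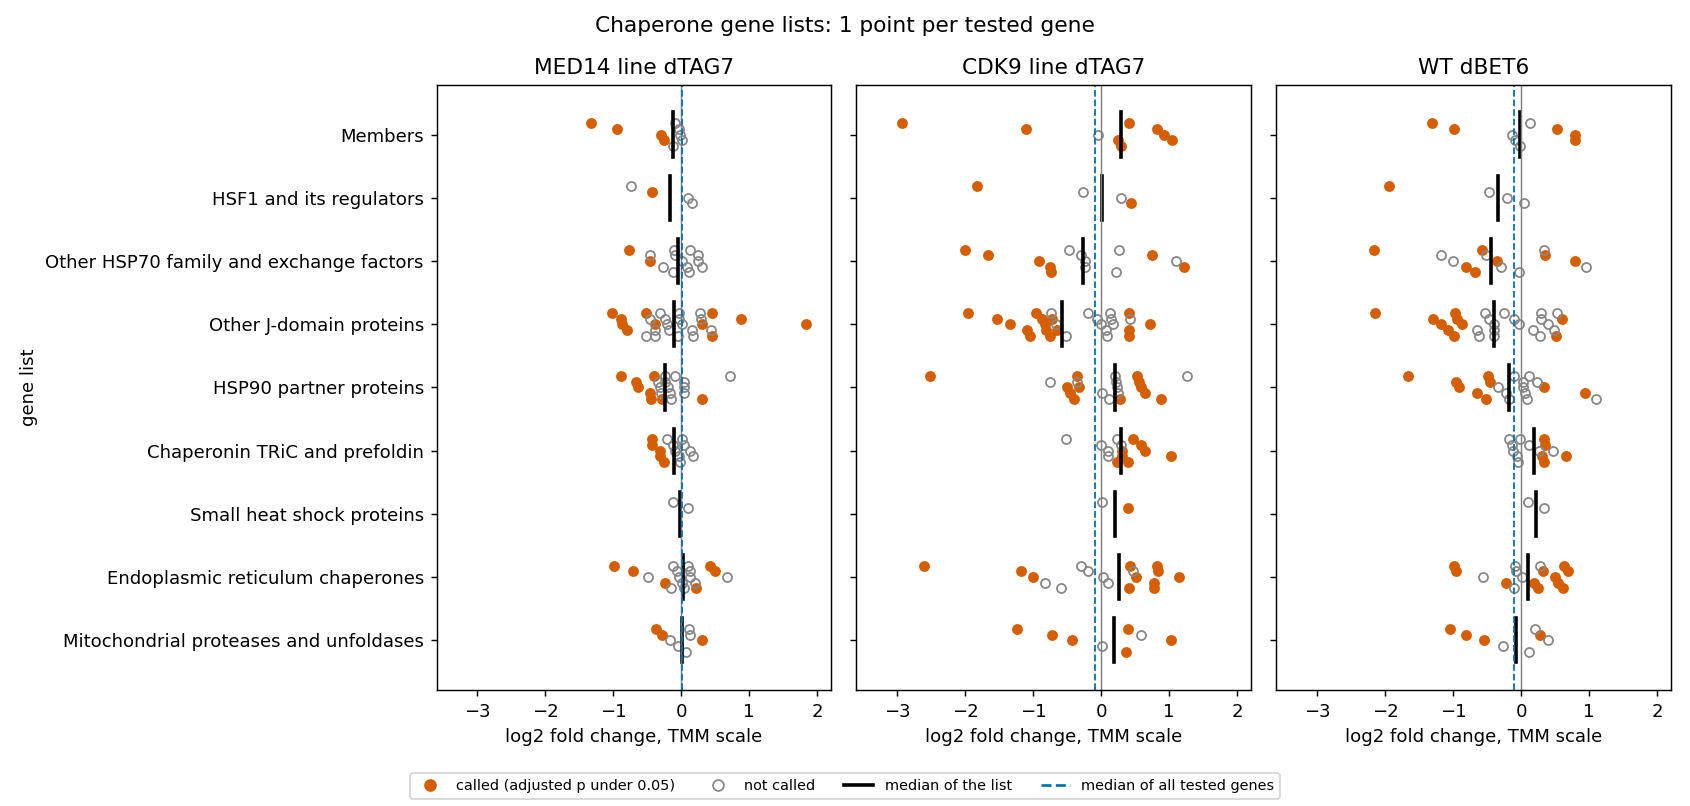
Log2 fold change on the TMM scale of every tested gene of the members and 8 chaperone lists in the MED14 line, the CDK9 line and with dBET6, filled where edgeR's adjusted p was under 0.05, with the list's median as a black bar and the median of all tested genes as a dashed line (DNAJB5, TTC4 and DNAJB9, with 3 counts or fewer under dBET6, are not drawn there). HSPA8 is the leftmost member in the MED14 panel at -1.33, and the median of the TRiC and prefoldin genes, 0.19, lies to the right of the dashed line, -0.11, in the dBET6 panel.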

How the data were processed

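Gene-level read counts of 66 Quant-Seq (3′ end) libraries were deposited by the authors as whole numbers, and the submitters' processing notes name bedtools 2.26.0, HTSeq 0.6.0 and STAR 2.5.2b with the build hg38. A second table deposited by the authors holds a loess-normalized signal per gene, used only in 1 alternative on log2(value + 1). How reads with several matches and strand were treated is not given in the sources used here. The count table has 13375 rows: 13331 genes, of which 13297 could be named with GENCODE release 29, 37 ERCC and 7 SIRV spike-ins, which stayed out of the tests.

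The count test was edgeR 4.0.16 (quasi-likelihood, R 4.3.3) with 22 group means over all libraries (44 residual degrees of freedom), edgeR's filter on low counts and Benjamini-Hochberg adjustment over all genes tested. Each SE was taken as |log2 fold change| over the root of its F statistic. On the spike-in scale the library size was the spike-in total times 126.3, and on the TMM scale the human gene total with TMM factors. Steps were tested on simulated data. Alternatives were median-of-ratios scaling, no filter, a mean of at least 5 CPM, a replicate block, a fit on only the 6 libraries compared, limma 3.58.1 on loess values, DESeq2 1.42.0 and fits with 1 library left out. Replicates with the same letter did not deviate together (0 of 12 comparisons), so the letter was not taken as a pairing.

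The 9 members and all lists were chosen with earlier results of these data known. Genes named beside them were HSF1, the lowest and highest of each list of at least 3 tested genes in the MED14 line or with dBET6, and the 5 genes most like HSPA8. HSF2 in the CDK9 line and with THAL-SNS-032 was added after values were seen. So were the comparison of the CDK9 line with THAL-SNS-032 and the counting intervals of low genes. List genes HSPA1A, HSPA1B, HSPA6 and 9 others are not analysed here. Promoters came from RefSeq (GRCh38.p14), with all 9 members matched.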

Additional observations from a re-analysis of the deposited data

Results flagged for a closer look

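The effect of dTAG7 differed from that in wild-type cells, by a test of the difference itself on the spike-in scale. It did so for 9 members in the CDK9 line (93.8% of genes lower) and 9 in the MED14 line (56.7%). It also did so for 7 in the MED10 line (13.9%) and 7 in the MED6 line (10.6%). In each of these lines the effect was the lower one on that scale. On the TMM scale 2 members were lower and 5 higher in the CDK9 line (23% and 15.1% of genes). Among the 8 Mediator lines the effect of dTAG7 varied for 9 members on the spike-in scale (45.6% of genes). It did so for 2, HSPA8 and HSPA4L, on the TMM scale (12.5%).

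The CDK9 line with dTAG7 and wild-type cells with THAL-SNS-032 differed in 3 members, by a contrast chosen after the values were seen. In it 2.33% of genes were lower and 0.439% higher on the spike-in scale (TMM 3.74% and 1.87%). Each of the 3 calls on the spike-in scale was lost without certain single libraries. DNAJB1 was lower in the CDK9 line, by -1.95 on the spike-in scale and -1.91 on the TMM scale. HSP90AA1 lost less RNA there, by 0.42 and 0.43 on the same scales, as did HSPD1, by 0.46 and 0.47.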

How the results depend on the processing

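Counts of members that fell depended most on the scale. With TMM and with median-of-ratios scaling alike, 9 became 2 in the CDK9 line, with dBET6 and with THAL-SNS-032, 9 became 4 in the MED14 line, 7 became 1 in the MED6 and 2 in the MED10 line, 4 became 0 in the MED26 line and 0 became 3 in the MED12 line. With TMM the differences from wild-type cells fell to 1 member (MED6), 1 (MED10) and 2 (MED14), the MED14 DMSO difference and the dBET6 to THAL-SNS-032 difference to 0, and the variation among Mediator lines to 2. Values that turned positive with TMM were HSPA4 0.289, HSPH1 0.244, HSP90AA1 1.04, HSP90AB1 0.923, HSPD1 0.820 and HSPE1 0.416 in the CDK9 line, HSP90AA1 0.017 in the MED14 line, HSP90AA1 0.795, HSP90AB1 0.801, HSPD1 0.524 and HSPE1 0.132 with dBET6, and HSP90AA1 0.607, HSP90AB1 0.630, HSPD1 0.35 and HSPE1 0.096 with THAL-SNS-032. With median-of-ratios scaling they were HSPA4 0.414, HSPA4L 0.078, HSPH1 0.369, HSP90AA1 1.17, HSP90AB1 1.05, HSPD1 0.950 and HSPE1 0.535 in the CDK9 line, HSP90AA1 0.057, HSP90AB1 0.003 and HSPD1 0.019 in the MED14 line, HSPA4 0.143, HSPA4L 0.028, HSPH1 0.064, HSP90AA1 0.953, HSP90AB1 0.959, HSPD1 0.681 and HSPE1 0.288 with dBET6, and HSP90AA1 0.684, HSP90AB1 0.707, HSPD1 0.427 and HSPE1 0.174 with THAL-SNS-032. These scales set the bulk of genes to no change, so a fall smaller than that of the bulk becomes a rise. On the spike-in scale, DESeq2 called 2 members in the MED12, 2 in the MED28 and 3 in the MED31 line, the libraries of the comparison alone 1 in the MED6, 2 in the MED28 and 2 in the MED31 line, limma on loess values 0 in each of the MED26 and MED28 lines, and a mean of at least 5 CPM 2 in the MED31 line. The share of all genes called was not counted for these alternatives, so their counts say nothing particular about the members. The cause of these changes was not tested.

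With the replicate block, 1 member fell on the TMM scale in the MED26 line against 0 without it, and of 108 fold changes 107 kept their call. The exception was HSPA4 in the MED26 line (edgeR adjusted p = 0.0533). Same-letter correlations ran from -0.392 to 0.147.

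With each library left out in turn, no called fold change of a member turned direction: 618 values kept their side of the threshold, 27 calls were lost and 3 gained. Members that fell on the spike-in scale numbered 0 to 1 in the MED12, MED28 and MED31 lines and 0 to 3 in the MED26 line. On the TMM scale they numbered 1 to 4 in the MED12, 2 to 4 in the MED14 and 0 to 1 in the MED28 line, and 0 to 1 rose in the MED6 line. Differences from wild-type cells were called for 2 to 7 members in the MED6, 4 to 7 in the MED10 and 0 to 1 in the MED12, MED26, MED28 and MED31 lines, and DMSO differences for 2 to 5 in the MED12, 0 to 4 in the MED14 and 0 to 1 in the MED28 line. The CDK9 line and THAL-SNS-032 differed in 0 to 4 members. Depth limits DNAJB1 most, with 2 to 468 counts per library.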

Other observations

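Over the 12 log2 fold changes on the TMM scale, the genes whose pattern was most like that of HSPA8 among 10207 genes with a mean of at least 5 CPM were HIC1 (Pearson's r = 0.959), ZNF692 (0.951), E2F4 (0.950), SRSF2 (0.944) and FAM78A (0.944). HIC1 and ZNF692 are zinc finger proteins, E2F4 is a cell cycle repressor and SRSF2 a splicing factor. These r values describe 12 comparisons, of which 3 share the wild-type DMSO libraries, and carry no test. The other members were less like HSPA8: r was 0.486 for DNAJB1, 0.478 for HSPA4L and 0.259 for HSPH1, and negative for HSPA4 (-0.16), HSPE1 (-0.34), HSPD1 (-0.57), HSP90AA1 (-0.59) and HSP90AB1 (-0.60).

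As a share of all human gene counts the 9 members together held 0.867% ± 0.016 (SD, n = 3) in wild-type DMSO. The share went from 0.864% ± 0.026 to 1.15% ± 0.020 in the CDK9 line and from 0.851% ± 0.008 to 0.795% ± 0.007 in the MED14 line, and it was 0.989% ± 0.027 with dBET6 and 0.979% ± 0.047 with THAL-SNS-032. HSP90AA1 and HSP90AB1 make up most of this sum.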
